A study of Mus musculus with 6 samples.

Results

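The genes for integrin subunits and laminin chains, with their closest basement membrane partners, were described in cystic mouse kidneys with and without the microRNA miR-214. Members were taken by name from the authors' deposited table of 20138 genes. They were all names beginning with Itga or Itgb, all laminin alpha, beta and gamma chains, the nidogens Nid1 and Nid2, agrin (Agrn) and perlecan (Hspg2). The names Itgb3bp, Itgb1bp2 and Itgb1bp1, which belong to integrin-binding proteins, were left out. The rule gave 43 genes by name and used no measured value, though it was set with earlier results of these data known. Of these, 27 encode integrin subunits, 11 encode laminin chains, 4 are the nidogens and proteoglycans, and Itgbl1 encodes an integrin beta-like protein that is not an established subunit. Itgb2l is counted with the subunits by its name.

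Whole kidneys were taken at postnatal day 35 from 3 Pkd2-miR-214-KO and 3 Pkd2-KO mice. Pkd2-miR-214-KO mice have the genotype Pkhd1Cre; Pkd2 F/F; miR-214null, and Pkd2-KO mice have Pkhd1Cre; Pkd2 F/F. Both groups thus lack Pkd2, the gene for the cation channel polycystin-2, where Cre driven by the Pkhd1 promoter is active, which is mainly in the tubules, while the labels tie the miR-214 null allele to no cell type. No group with intact Pkd2 was analysed here, so the values below compare cystic kidneys with cystic kidneys. The table used here holds the authors' fitted folds and tests. Values per library were not analysed here, so the depth is unknown and no value per animal is given. How far animals of a group differ is known only as far as the authors' test used it.

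Integrins are receptors made of an alpha and a beta subunit that span the cell membrane and hold cells to their matrix, while those of the beta2 and beta7 families hold leukocytes to other cells. Laminins are trimers of an alpha, a beta and a gamma chain that form the sheet on which basement membranes are built, with nidogens, perlecan and agrin linked to it. In the kidney the trimer of Lama5, Lamb2 and Lamc1 is the main laminin of the mature glomerular filter, and mice with too little Lama5 develop cystic kidneys. Loss of Itgb1 from collecting ducts is known to hold back cyst growth in Pkd1 mutant mice.

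The direction of the folds is not stated in the table. It was taken from Mir214, which is deleted in Pkd2-miR-214-KO and had a log2 fold of -7.62 ± 1.08 by the authors' deposited table. A positive log2 fold therefore means more RNA in Pkd2-miR-214-KO kidneys. Errors are approximate standard errors (SE), the size of the log2 fold over the square root of its likelihood ratio, with n = 3 animals per genotype. The labels do not give the sex of the animals, and Xist, transcribed from the inactive X chromosome of females, had a log2 fold of 10.21 ± 2.36 by the authors' deposited table. The Y-linked genes Ddx3y, Eif2s3y, Kdm5d and Uty had folds of -0.23 ± 1.54, -0.14 ± 1.63, -0.66 ± 1.40 and -0.39 ± 1.66 there. The part of the sexes in the values below was not tested.

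The microRNA itself is shown first, since its null allele is what separates the groups. Its arms lie on chromosome 1 of GRCm38, the assembly of mm10, at chr1:162223438-162223459 (3p) and chr1:162223397-162223418 (5p), both on the plus strand. RefSeq gives the mature sequences below, with the seed, bases 2 to 8, in capitals.
mmu-miR-214-3p: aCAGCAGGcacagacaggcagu
mmu-miR-214-5p: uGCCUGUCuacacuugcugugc

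A 7-base match to the 3p seed, CCTGCTG on the transcript strand, stood in the longest annotated 3′ UTR of 9 of the 43 members (20.9%), against 4057 of 16895 protein-coding genes of the table (24.0%). For the 5p seed, with the match GACAGGC, the counts were 4 of 43 members (9.30%) and 1724 of 16895 genes (10.2%). The members with a 3p match included Itgb8, Itgb2l, Itga2, Itga6, Itga8, Itgb5, Itgb1 and Itga4, each with 1 match. The 30 bases around the 3p match of Itga8 and around the 5p match of Itgb2 were not contiguous in the genome, as they spanned an exon junction. They lay inside the genes, at chr2:12140488-12155382 and chr10:77546183-77547144, and not at their 3′ ends. Whether these bases are UTR in other transcripts of the 2 genes was not tested. The UTR was the longest of any annotated transcript with a stop codon, and whether kidney uses it was not tested. Only in Itgb8 and Itga4 was the match followed by an A, a base that often stands there in known target sites. The windows of 30 bases around the matches in Itgb8 (chr12:119162714-119162743, minus strand), Itga4 (chr2:79332931-79332960, plus strand), Itgb1 (chr8:128732511-128732540, plus strand) and Itga6 (chr2:71853689-71853718, plus strand) are shown with the match in capitals, as members that the results below come back to. The sequences are from GENCODE M21 on GRCm38.
Itgb8: cttctgtacaaCCTGCTGatgaaaagcatc
Itga4: gcacacttcagCCTGCTGagacattaagct
Itgb1: tctttgtttagCCTGCTGgctgccctctgg
Itga6: tagctttgggaCCTGCTGtggttgtggtgg

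The log2 folds of the 9 members with a 3p match were positive for 5 and negative for 4, with a median of 0.01, against a median of -0.07 for the 34 members without one. Over all protein-coding genes these medians were in the opposite order, -0.02 with a 3p match and 0.004 without one. Of the 4 members with a 5p match, 1 had a positive and 3 had a negative fold. Their median was -0.20, against -0.05 for the 39 members without one. Over all protein-coding genes the 5p medians were -0.02 and 0.0006. None of these differences was tested. Itgb8 had -0.52 ± 0.29 and Itga4 -0.12 ± 0.36 in the authors' deposited table, and neither passed. A match of 7 letters is a description of the sequence, not evidence of a functional site.

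None of the 43 members passed an adjusted p under 0.05 in the authors' edgeR likelihood ratio test, where 25 of the 20138 genes (0.124%) did. Without adjustment, 5 members (11.6%) had a p under 0.05, against 4.82% of all genes. The laminin chain genes Lamc3 and Lama2 and the leukocyte integrin genes Itgae and Itgax had negative folds (4 of 43, 9.30%, against 1.71% of all genes), and Itgb3 had a positive one (1 of 43, 2.33%, against 3.1% of all genes). No test of these shares against all genes was made. The median log2 fold of the members was -0.06, with quartiles of -0.29 and 0.13, and 26 of 43 were negative (60.5%). Over all genes the median was 0.00, the quartiles were -0.19 and 0.19, and 48.2% were negative. In whole kidney, fewer cells of a type and less RNA per cell cannot be told apart.

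**Figure D1:**
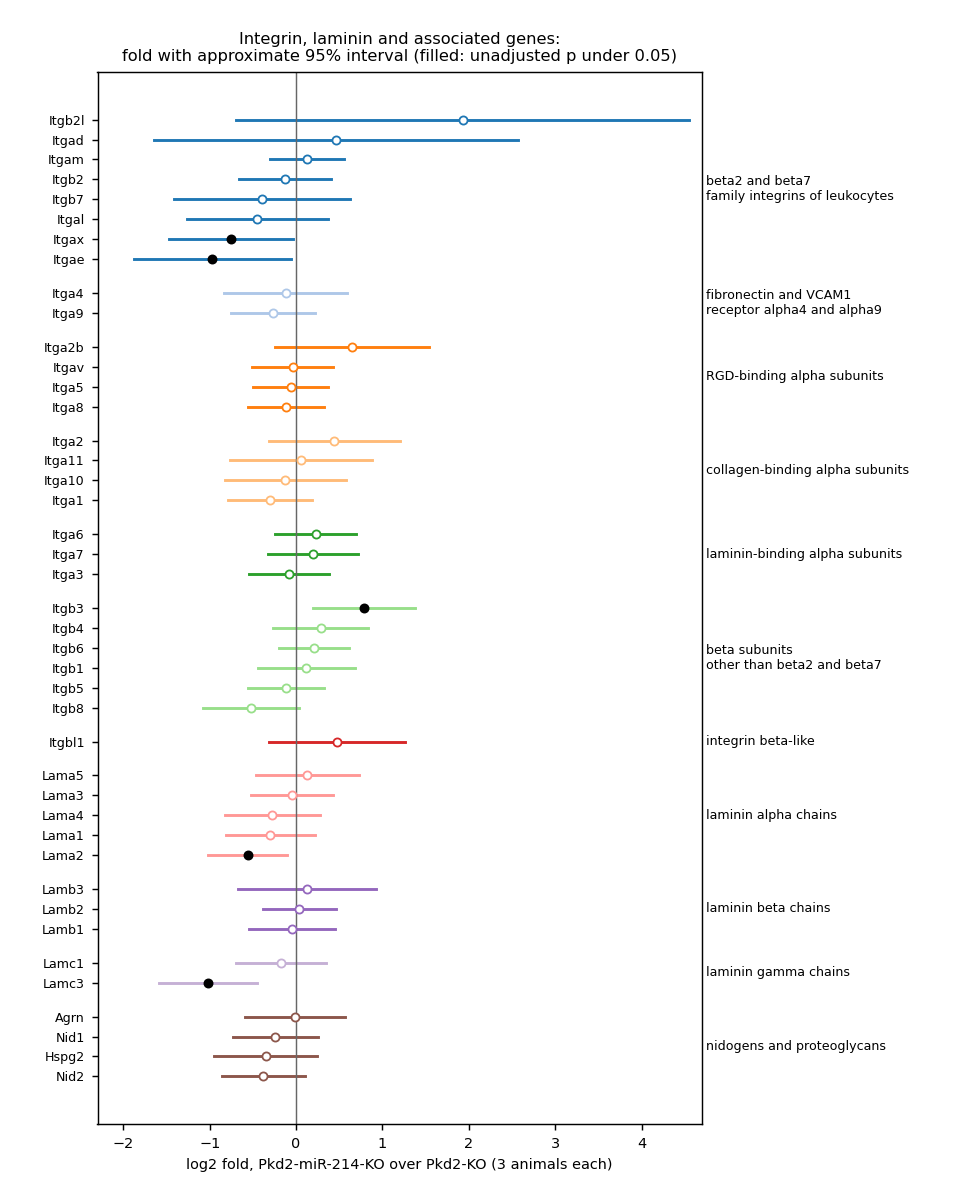
Log2 fold of 42 of the 43 genes (the other is not reported) in Pkd2-miR-214-KO over Pkd2-KO kidneys, from the authors' deposited table, with the approximate 95% interval (1.96 SE on either side), grouped by role. Filled points mark the 5 genes with an unadjusted p under 0.05, and the intervals of the other genes drawn cross 0.

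For 30 of the 43 members (69.8%) the approximate 95% interval lay within -1 and 1 on the log2 scale, so that a doubling or halving fell outside it. The same held for 57.5% of all genes and 79.5% of the 14520 genes with a mean log2 CPM, counts scaled to library size, of at least 0. The smallest signal called in the table had a likelihood ratio whose root was 4.02. With each member's own SE, a log2 fold of 1.12 (median over members) would have been needed to reach it, with a range of 0.84 for Itgb6 to 5.38 for Itgb2l.

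**Figure D2:**
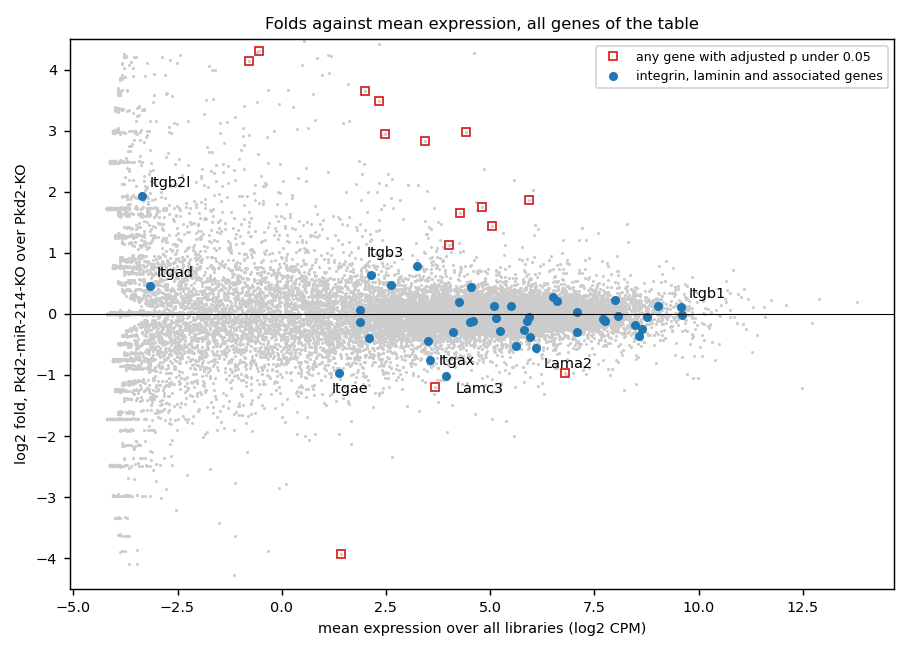
Log2 fold (vertical axis, Pkd2-miR-214-KO over Pkd2-KO) against mean expression in log2 CPM (horizontal axis) for the genes of the authors' deposited table, with 87 genes outside the vertical limits of -4.5 and 4.5 not drawn. The 42 members drawn (blue) lie within the cloud of all genes (grey), and none is among those with an adjusted p under 0.05 (red squares).

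Among the laminins, Lamc3 had the smallest p of all members, the 50th smallest of the whole table. It encodes the gamma3 chain, a less widespread alternative to gamma1, and lies at chr2:31887291-31946539. Its mean of 15.4 CPM and its log2 fold correspond to about 10.2 CPM in Pkd2-miR-214-KO and 20.6 CPM in Pkd2-KO kidneys, if both groups weigh equally in that mean. The log2 fold read from the authors' deposited table was -1.02 ± 0.29 (edgeR, unadjusted p = 0.000441, adjusted p = 0.177). A log2 fold of 1.17 in size would have been needed with its SE. An antisense gene, Gm13441, which has no value in the table, shares 382 bases or 6.27% of the exon length of Lamc3, and whether reads were counted by strand is not given in the sources used here.

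Lamc1, the gamma chain of most laminins, had a log2 fold of -0.18 ± 0.27 by the authors' deposited table. It lies 8.89 Mb from Mir214 on chromosome 1. Per kb of merged exons the mean level was 2.53 CPM for Lamc3 and 42.9 CPM for Lamc1.

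Of the laminin alpha chains, Lama2 was the member with an unadjusted p under 0.05. It encodes the chain of muscle and mesenchyme, whose loss causes muscular dystrophy, and lies at chr10:26980036-27619758. Its levels implied by the mean and the fold were 55.3 CPM in Pkd2-miR-214-KO and 81.5 CPM in Pkd2-KO kidneys. The log2 fold read from the authors' deposited table was -0.56 ± 0.23 (edgeR, unadjusted p = 0.0166, adjusted p = 0.733). Lama4, the chain of vessel walls, and Lama1, the chain of embryonic and some tubular basement membranes, had log2 folds of -0.28 ± 0.28 and -0.30 ± 0.26 in the authors' deposited table.

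Besides Lama1 and Lamc1 above, Lama5, Lamb1, Lamb2, Lama3 and Lamb3 are chains of epithelial basement membranes. Their fitted log2 folds lay between -0.05 and 0.13, and the approximate 95% interval of Lamb3 ran from -0.67 to 0.93. Lama5, the most abundant alpha chain with implied levels of 541 CPM in Pkd2-miR-214-KO and 495 CPM in Pkd2-KO kidneys, had a log2 fold of 0.13 with an approximate 95% interval of -0.47 to 0.72 in the authors' deposited table. Its partners Lamb1 and Lamb2 had -0.05 ± 0.26 and 0.04 ± 0.22 there. Lama3 and Lamb3, chains of a trimer that anchors epithelia through the alpha6 and beta4 integrin pair, had log2 folds of -0.05 ± 0.24 and 0.13 ± 0.41 in the authors' deposited table. None of these chains passed.

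The nidogens and proteoglycans all had negative log2 folds, with a median of -0.30 over the 4 genes and none past the threshold. Nid2 had -0.38 ± 0.25, Hspg2 -0.35 ± 0.30, Nid1 -0.24 ± 0.25 and Agrn -0.02 ± 0.30 in the authors' deposited table. Each of the 4 approximate 95% intervals crossed 0. Nidogens tie laminin to collagen IV, while perlecan and agrin carry heparan sulfate chains.

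The partner list of 24 other matrix and basement membrane genes had a median log2 fold of -0.23, with 18 negative. None passed. At an unadjusted p under 0.05, 2 had positive folds (8.33%, against 3.1% of all genes) and 3 had negative folds (12.5%, against 1.71%). These shares were not tested. Besides Hmcn1 and Vtn, given next, the genes were Fbln2 (0.60 ± 0.25), Frem1 (-0.97 ± 0.38) and Col15a1 (-0.81 ± 0.35) by the authors' deposited table. Hmcn1, the giant matrix protein hemicentin, had -1.06 ± 0.33 (adjusted p = 0.226), and Vtn, the plasma protein vitronectin made by the liver, had 3.16 ± 1.07 (adjusted p = 0.344) in the authors' deposited table. The liver gene Alb had 6.64 ± 2.05 there, and the part of liver RNA in the value of Vtn was not tested.

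Markers of mesangium, pericytes and smooth muscle stood beside Lama2 and Lamc3 with negative folds for 5 of 6 genes, a median of -0.25 and none at an unadjusted p under 0.05. The smallest p-values among them were those of Cspg4 (-0.38 ± 0.23) and Acta2 (-0.39 ± 0.35) in the authors' deposited table. Endothelial markers had 5 of 6 negative and a median of -0.19, with Plvap at -0.51 ± 0.25 (unadjusted p = 0.0387, adjusted p = 0.962) and Tek at -0.24 ± 0.23 in the authors' deposited table. The mean levels over both genotypes summed to 787 CPM and 732 CPM in these lists, so their genes were well expressed. Their part in the values of the laminin genes was not tested.

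Of the 8 genes of the beta2 and beta7 families, 5 had negative and 3 positive log2 folds, with a median of -0.26 and none past the threshold. Among the 6 with a mean log2 CPM of at least 0, 5 were negative and 1 was positive, with a median of -0.42. Itgae (chr11:73090583-73147446) encodes CD103, a subunit of intraepithelial T cells and some dendritic cells that pairs with beta7. Its implied levels were 1.74 CPM in Pkd2-miR-214-KO and 3.40 CPM in Pkd2-KO kidneys, a log2 fold of -0.97 ± 0.46 by the authors' deposited table (edgeR, unadjusted p = 0.0361, adjusted p = 0.937). Its partner Itgb7 had -0.39 ± 0.52 there.

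Itgax (chr7:128129547-128150657) encodes CD11c, known from dendritic cells and some macrophages. Its implied levels were 8.77 CPM in Pkd2-miR-214-KO and 14.8 CPM in Pkd2-KO kidneys, a log2 fold of -0.75 ± 0.37 by the authors' deposited table (edgeR, unadjusted p = 0.0396, adjusted p = 0.965). The shared partner Itgb2, without which no beta2 integrin reaches the surface, had -0.13 ± 0.27, and Itgam, which encodes CD11b, had 0.13 ± 0.22 in the authors' deposited table. Itgal, the alpha chain of the lymphocyte integrin LFA-1, had -0.45 ± 0.41 there. The differences between the folds of these genes were not tested. Of the exon length of Itgam, 68.7% is shared with Gm49368, a gene annotated on the same strand that has no value in the table. How reads in these exons were counted is not known, so the value of Itgam may be less certain.

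The lowest members of all were Itgad and Itgb2l, with means of 0.111 and 0.0984 CPM. Itgb2l, known from maturing mouse neutrophils, had a log2 fold of 1.93 with an approximate 95% interval of -0.70 to 4.55, and Itgad, an alpha chain of some splenic macrophages, had 0.46 with an interval of -1.65 to 2.57 in the authors' deposited table. Both intervals span a wide range, and fitted folds at this level depend on the prior count of the fit.

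Marker lists of leukocytes were set beside these values. The general leukocyte list had a median log2 fold of -0.04, with 5 of 8 negative, and its smallest p-values were those of the B cell gene Cd79a (3.77 ± 1.11) and of Lyz2 (0.25 ± 0.27) in the authors' deposited table. Macrophage and dendritic cell markers had a median of -0.03, with 4 of 7 negative. By p, this list was led by the dendritic cell receptor gene Flt3 (-0.62 ± 0.43, mean 2.27 CPM) in the authors' deposited table. Emr1, the gene of F4/80, followed with -0.37 ± 0.27 there. Next came Cd68 with 0.40 ± 0.35, among the 3 markers of the list with a positive fold. All 6 neutrophil markers had positive folds with an unadjusted p under 0.05 (100%, against 3.1% of all genes) and an adjusted p over 0.05. Their median was 1.65 and their summed mean level 10.8 CPM, and the share was not tested. The largest of these folds were those of the granule genes Ngp (6.63 ± 1.75) and Camp (5.24 ± 1.75) in the authors' deposited table. Of the 6 markers 3 had a mean log2 CPM under 0, namely Ngp (0.715 CPM), Retnlg (0.576 CPM) and Camp (0.309 CPM), so their folds rest on few reads. The part of these cells in the values of the integrin genes was not tested.

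Itgb3 was the member with an unadjusted p under 0.05 and a positive fold. It encodes the beta3 subunit, which pairs with the product of Itga2b on platelets and with that of Itgav on vessel and other cells, and lies at chr11:104608000-104670476. Its implied levels were 12.05 CPM in Pkd2-miR-214-KO and 6.98 CPM in Pkd2-KO kidneys, a log2 fold of 0.79 ± 0.30 by the authors' deposited table (edgeR, unadjusted p = 0.00948, adjusted p = 0.580). The platelet partner Itga2b had 0.64 ± 0.45 and the wider partner Itgav -0.04 ± 0.24 in the authors' deposited table. Platelet markers had positive folds for 5 of 6 genes, with a median of 0.65 and a summed mean level of 9.05 CPM. The smallest p-values of that list were those of Treml1 (2.73 ± 0.84) and Pf4 (0.68 ± 0.40) in the authors' deposited table. Of the 6 markers 4 had a mean log2 CPM under 0, namely Treml1 (0.288 CPM), Gp9 (0.205 CPM), Gp1ba (0.115 CPM) and Gp6 (0.0680 CPM), so their folds rest on few reads. Their part in the value of Itgb3 was not tested.

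The beta subunits of epithelial and stromal cells did not pass. Itgb8, which with the alphav subunit releases active TGF-beta, had a log2 fold of -0.52 with an approximate 95% interval of -1.08 to 0.04 in the authors' deposited table, from implied levels of 40.4 CPM in Pkd2-miR-214-KO and 58.0 CPM in Pkd2-KO kidneys. Itgb6, another activator of TGF-beta made by injured epithelium, had 0.21 ± 0.21 and Itgb5 -0.12 ± 0.22 there. Itgb4, the beta subunit of hemidesmosomes, had 0.28 ± 0.28 in the authors' deposited table. Itgb1, the common partner of most matrix-binding alpha subunits, had implied levels of 801 CPM in Pkd2-miR-214-KO and 738 CPM in Pkd2-KO kidneys, a log2 fold of 0.12 with an approximate 95% interval of -0.44 to 0.68 in the authors' deposited table. Itgbl1 had 0.47 ± 0.40 there.

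The alpha subunits that bind matrix had folds between -0.30 and 0.64, and none passed. Among the laminin receptors, Itga6 had 0.22 ± 0.24, Itga7, known from muscle, 0.19 ± 0.26 and Itga3, the podocyte receptor for glomerular laminin, -0.08 ± 0.24 in the authors' deposited table. Podocyte markers beside Itga3 had a median of -0.03, with 3 of 6 negative, and Nphs1, the gene of the filter protein nephrin, had the smallest p with a log2 fold of -0.43 ± 0.26 by the authors' deposited table. Among the collagen receptors, Itga1 had -0.30 ± 0.25, Itga2 0.44 ± 0.39, Itga10 -0.13 ± 0.36 and Itga11 0.06 ± 0.42 in the authors' deposited table. Of those that bind the RGD motif of fibronectin and like ligands, Itga8, the receptor for nephronectin that kidney formation needs, had -0.12 ± 0.23 and Itga5 -0.06 ± 0.22 there. Itga9 had -0.27 ± 0.25 in the authors' deposited table. Of the exon length of Itga4, 8.04% is shared with Cerkl on the opposite strand, which has a value in the table. Of that of Itga10, 33.5% is shared with Gm42957 on the same strand, which has none. How reads in the shared exons were counted is not known, so the values of Itga4 and Itga10 may be less certain.

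Inside the cell, 24 focal adhesion genes that link integrins to actin or carry their signals had a median log2 fold of -0.03, with 16 negative. None passed, and all 24 approximate 95% intervals lay within -1 and 1. At an unadjusted p under 0.05 there was 1 (4.17%, against 4.82% of all genes), a share near that of all genes. This was the talin gene Tln2 with -0.44 ± 0.22 (adjusted p = 1 in the authors' deposited table), followed by the tensin gene Tns3 with -0.27 ± 0.22 there.

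**Figure D3:**
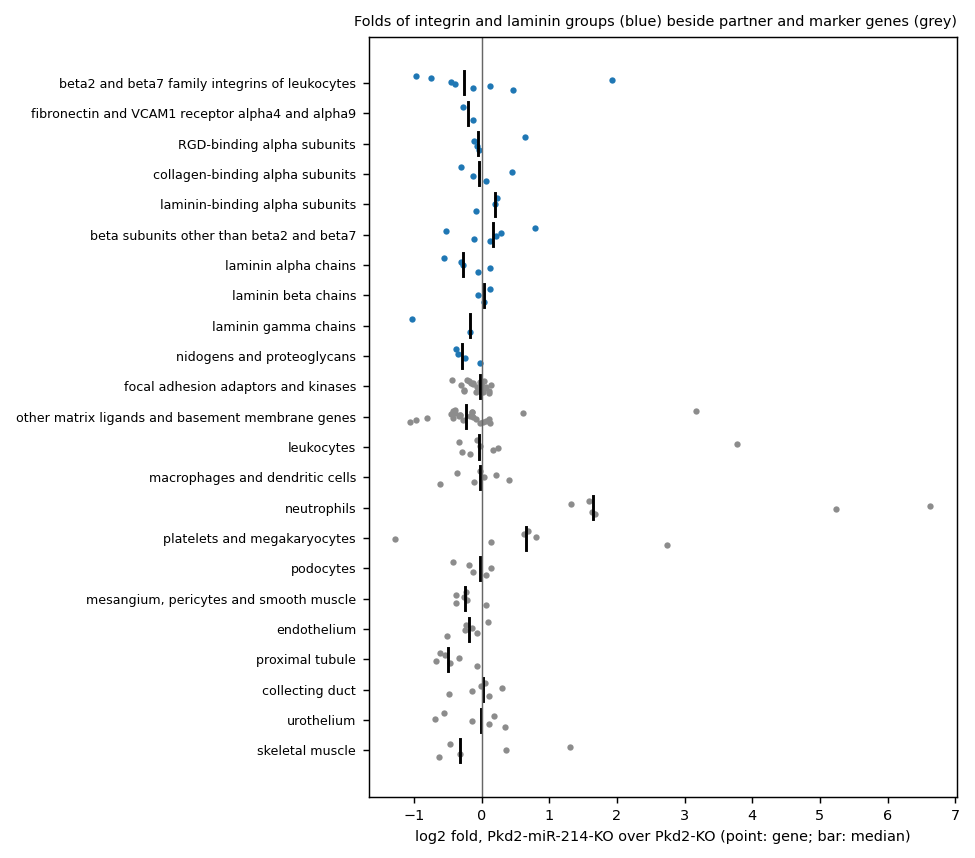
Log2 folds (horizontal axis, Pkd2-miR-214-KO over Pkd2-KO) of single genes, with black bars for the median over all genes of each group, of which 2 genes are not drawn. Groups of a single gene, here Itgbl1, are not drawn. The medians of the integrin and laminin groups drawn (blue) lie between -0.30 and 0.19, while among the partner and marker lists (grey) those of neutrophils (1.65) and platelets (0.65) lie farthest to the right and that of the proximal tubule (-0.50) farthest to the left.

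Tubule genes were abundant, as the kidney label has it, with a summed mean level of 5221 CPM for the 6 proximal tubule markers. All 6 proximal tubule markers had negative folds, with a median of -0.50, and Slc5a2 (-0.67 ± 0.41) and Slc22a6 (-0.47 ± 0.35) had the smallest p-values by the authors' deposited table. Collecting duct markers had a median of 0.02, with 3 of 6 negative, and Hsd11b2 (-0.48 ± 0.31) and Scnn1g (0.30 ± 0.22) led by p in the authors' deposited table. Urothelial markers had a median of -0.01, with Upk1a at -0.55 ± 0.68 and Upk2 at -0.69 ± 0.85 in the authors' deposited table. The 5 skeletal muscle markers used had a median of -0.32. Acta1 had 1.30 ± 0.59 (edgeR, unadjusted p = 0.0283, adjusted p = 0.861) and Actn3 -0.62 ± 0.55 there. These muscle genes were low, with a summed mean level of 2.92 CPM and 3 of 5, Acta1 (0.468 CPM) among them, under a mean log2 CPM of 0. No gene of these lists passed, and their part in the values of the members was not tested.

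Levels were compared between genes as the mean CPM over both genotypes per kb of merged exons. Itgb1 led all members with 188.5 CPM per kb, followed by Agrn with 83.2, Itgb5 with 61.2 and Nid1 with 57.2 CPM per kb. Of the chains of the common epithelial and glomerular laminins, Lama5 had 45.5, Lamb1 44.0, Lamc1 42.9 and Lamb2 22.4 CPM per kb. Among alpha subunits Itga3 had 36.5, Itga6 28.3 and Itgav 24.9 CPM per kb. Itga8 had 8.05 and Itga1 7.33 CPM per kb. The members with an unadjusted p under 0.05 all stood in the lower part of this order, with 4.19 CPM per kb for Lama2, 2.53 for Lamc3, 2.45 for Itgax, 1.61 for Itgb3 and 0.561 for Itgae.

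The order of near neighbours cannot be set against a spread between animals here, and it changed with the length used. Per kb of the longest annotated transcript, Itga6 (59.3 CPM per kb) stood above Itga3 (42.9), and Lama2 (7.12) and Lama4 (6.19) stood above Lama3 (5.80). Lamb1, with 75.4 CPM per kb on that scale, then stood above Lama5 (45.5), Lamc1 (46.5) and Lamb2 (24.2). Itgb1 and Agrn remained first and second, with 202 and 89.7 CPM per kb.

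**Figure D4:**
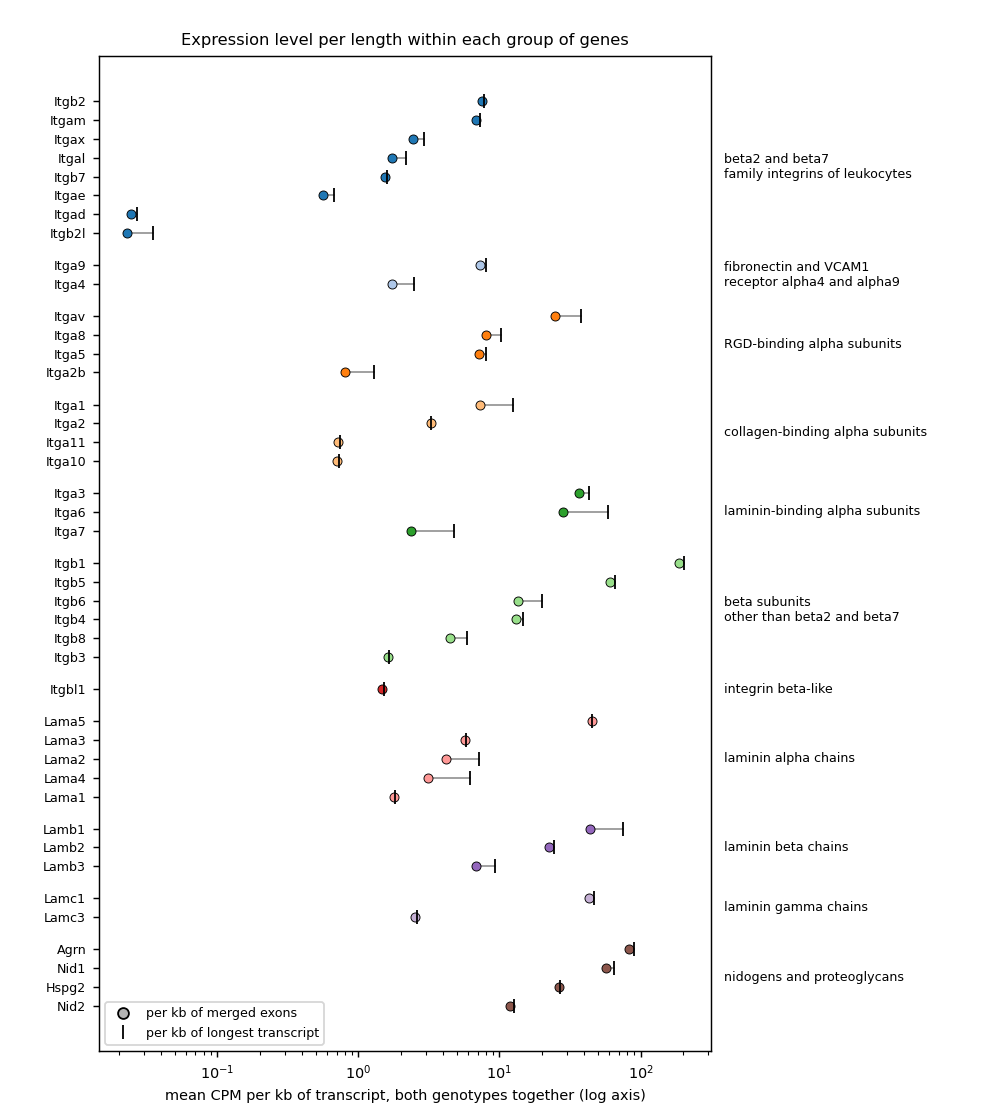
Mean CPM per kb over both genotypes (log axis) for 42 of the 43 members, per kb of merged exons (circles, coloured by role) and per kb of the longest annotated transcript (ticks). Itgb1 leads with 188.5 CPM per kb of merged exons, and Itgad and Itgb2l lie lowest with 0.0246 and 0.0228.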

How the data were processed

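Kidney RNA of 6 mice was sequenced. TopHat2 2.0.12, edgeR and mm10 are named in the submitters' processing notes. The labels name a stranded kit for total RNA, and the series text names polyA RNA. How reads were counted, with or without strand, and any filter on low counts is not given in the sources used here. Per the file headers, the authors deposited for each gene a log2 fold, a mean log2 CPM, a likelihood ratio (a score on which the test rests), a p-value and its adjusted value. The adjusted p-values differed by at most 5.1e-14 from a Benjamini-Hochberg adjustment over all 20138 genes.

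From these, approximate SEs and 95% intervals (1.96 SE) were computed, and levels per group implied by the mean CPM and the fold, if both groups weigh equally. The SE is poor for low genes. No new test per gene was made. Members and lists were chosen with earlier results of these data known. Named genes were every member with an unadjusted p under 0.05, the 3 smallest p-values and the highest level of each role, and the 2 smallest p-values of each other list. GENCODE M21 (GRCm38) gave positions, exon lengths and 3′ UTRs for 43 of 43 members and matched 19060 of the 20138 genes (94.6%). Listed names without a row in the table were not used. The computations were tested on folds simulated with the approximate SEs, which checks the arithmetic and cannot show how well those SEs hold for real counts. The software was matplotlib 3.10.9, scipy 1.17.1, numpy 2.4.6 and pandas 2.3.3 under Python 3.11.15. Alternatives were an adjusted p under 0.1, a mean log2 CPM of at least 0 with the adjustment redone, and folds less the median fold. Of the genes within the rule, 1 is counted but not named, and so is a marker gene outside the rule.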

Additional observations from a re-analysis of the deposited data

How the results depend on the processing

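No member passed the threshold with an adjusted p under 0.1, or among the 14520 genes with a mean log2 CPM of at least 0 after the adjustment was redone, while 5 members had an unadjusted p under 0.05 with and without that filter. The median log2 fold of the members was -0.08 with the filter and -0.06 less the median fold of those genes (-0.0022). The median of the 8 leukocyte integrins was -0.26, and -0.42 for the 6 that met that filter. All 43 folds kept their sign under that centring. The level per kb moved by more than 1.5 times for 10 of 43 members with the length of the longest transcript, an alternative chosen after seeing the data. Leaving out single animals could not be tried without values per library. No paired analysis was possible because the table used holds no values per library and the labels pair no animals.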
